A study of Mus musculus with 2 samples.

Results

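Definitive-type red blood cells were selected in the e13.5 mouse eye by their globin transcripts, from single cells of 2 libraries on the 10X Genomics platform, in which every captured transcript carries a unique molecular identifier (UMI). The control library pooled 3 *Myrf* fl/fl eye samples and the mutant library 3 *Rx>cre Myrf* fl/fl samples, and both therefore carry the floxed *Myrf* alleles. The cornea, lens and optic nerve had been removed from all of them. Cre driven by *Rx* acts in the eye field lineage, from which blood does not arise. *Myrf*, the floxed gene, had 251 UMIs in the non-red cells of the control and 113 in those of the mutant. These were 4.31 and 1.77 per 1000000 of all UMIs of these cells, of which globin made up 0.0575% and 0.133%. All levels below are in CPM, UMIs per 1000000 non-globin UMIs of the cells summed. Definitive red cells held 0 *Myrf* UMIs in both libraries, which allows up to 18.1 CPM in the control and 8.94 in the mutant, the level of 3 UMIs.

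A barcode was a member if it had 200 or more genes, at most 15% mitochondrial UMIs, at least 20% of its UMIs from genes whose symbols start with Hbb- or Hba-, and at least as many UMIs of *Hbb-bs* and *Hbb-bt* together as of *Hbb-y* and *Hbb-bh1* together. The members were thus chosen by their globin counts, so their globin share and beta-type split are given as a description. This gave 177 definitive red cells of 11893 kept barcodes, 63 of 5519 in the control and 114 of 6374 in the mutant. The remaining 550 red cells (158 control and 392 mutant), with more UMIs of the embryonic beta-type genes, are called primitive here, and 11166 other kept barcodes are called non-red. The libraries shared 72 barcode sequences, of which 0 were definitive red cells in both. As each genotype has a single library, replicates are lacking, no test was made, and genotype and library cannot be told apart. Intervals, in parentheses, are at 95% and cover counting error only, and UMIs of 1 cell are not independent of each other.

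Mouse red cells come in waves. Primitive erythroid cells arise in the yolk sac, enter the blood while still nucleated and use embryonic globins, namely *Hbb-y* and *Hbb-bh1* on the beta side and *Hba-x* (zeta) on the alpha side, beside the adult alpha genes. Definitive red cells of mid-gestation are made in the fetal liver, use the adult genes *Hbb-bs*, *Hbb-bt*, *Hba-a1* and *Hba-a2*, and lose their nucleus before or around the time they enter the blood, where they ripen as reticulocytes. At this stage both kinds circulate together, so that vessels of the eye hold a mixture of them.

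The genes on which the split turns lie together in the beta-globin cluster, on the minus strand of mouse chromosome 7 (GRCm38, GENCODE positions). *Hbb-bt* is at chr7:103812524-103813996, *Hbb-bs* at chr7:103826534-103828096, *Hbb-bh1* at chr7:103841637-103843164 and *Hbb-y* at chr7:103851749-103853216. The 150 bases before the RefSeq start of 3 of them (GRCm38.p6, 5′ to 3′ on the gene's strand) are shown because the definitive and primitive cells are told apart by which of these promoters' transcripts they hold. Capitals mark the CACCC box, the CCAAT box and the TATA-like words ATATAA and CATAAA, on either strand. The RefSeq table used here has no entry for *Hbb-bh1*. The GENCODE gene spans reach into these windows, and cover all of the one of *Hbb-bs*.
Hbb-bs, chr7:103827929-103828078: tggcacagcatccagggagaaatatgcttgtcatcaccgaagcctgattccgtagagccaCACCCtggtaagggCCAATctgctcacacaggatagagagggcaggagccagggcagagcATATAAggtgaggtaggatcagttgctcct
Hbb-bt, chr7:103813924-103814073: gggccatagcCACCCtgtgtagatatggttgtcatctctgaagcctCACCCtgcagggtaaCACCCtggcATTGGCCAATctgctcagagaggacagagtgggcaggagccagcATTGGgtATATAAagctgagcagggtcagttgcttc
Hbb-y, chr7:103853208-103853357: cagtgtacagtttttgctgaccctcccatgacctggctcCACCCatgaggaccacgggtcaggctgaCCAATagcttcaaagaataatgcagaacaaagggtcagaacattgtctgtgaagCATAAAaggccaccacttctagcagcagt
Each of the 3 windows held a TATA-like ATATAA or CATAAA, at position -30 in *Hbb-bs* and -29 in both *Hbb-bt* and *Hbb-y*, counted back from the start. *Hbb-bs* and *Hbb-y* each had 1 CACCC and 1 CCAAT, at -90 and -76 in *Hbb-bs* and at -111 and -83 in *Hbb-y*, while *Hbb-bt* had 3 of each, of which a pair of CCAAT words on opposite strands stand side by side. The GATA motif, searched on both strands as GATA with A or T before it and A or G after it, was found in 0 of these windows. Of 32851 mouse promoters in the table, the same 150-base window held CACCC in 37.4%, CCAAT in 24.5%, a GATA motif in 16.0% and ATATAA or CATAAA in 11.0%, so the matches describe these sequences and no more.

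Definitive red cells made up 1.14% of kept control barcodes (0.878 to 1.46) and 1.79% of kept mutant barcodes (1.48 to 2.14). The Clopper-Pearson counting intervals only narrowly failed to overlap. With at least 5000 UMIs per barcode the shares were 1.47% and 2.07%. Primitive cells were also more common in the mutant, at 392 of 6374 kept barcodes against 158 of 5519 in the control. Among red cells alone, definitive cells were 28.5% (22.7 to 34.9) of control and 22.5% (19.0 to 26.4) of mutant cells, with overlapping intervals. How much blood stayed in each dissected and pooled sample was not measured, and its part in these shares was not tested.

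The split by beta-type globin left little between the classes. Among the 221 control red cells, 61 had 90% or more of their beta-type UMIs from *Hbb-bs* and *Hbb-bt*, 2 lay between 50% and 60%, and 0 lay between 60% and 90%. In the mutant, 113 of 506 red cells lay at 90% or more, 1 between 50% and 60%, and again 0 between 60% and 90%. Most members were nearly pure, since 57 control and 104 mutant cells reached 99% or more. The median primitive cell drew 16.0% of its beta-type UMIs from *Hbb-bs* and *Hbb-bt* in the control and 15.8% in the mutant.

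**Figure D1:**
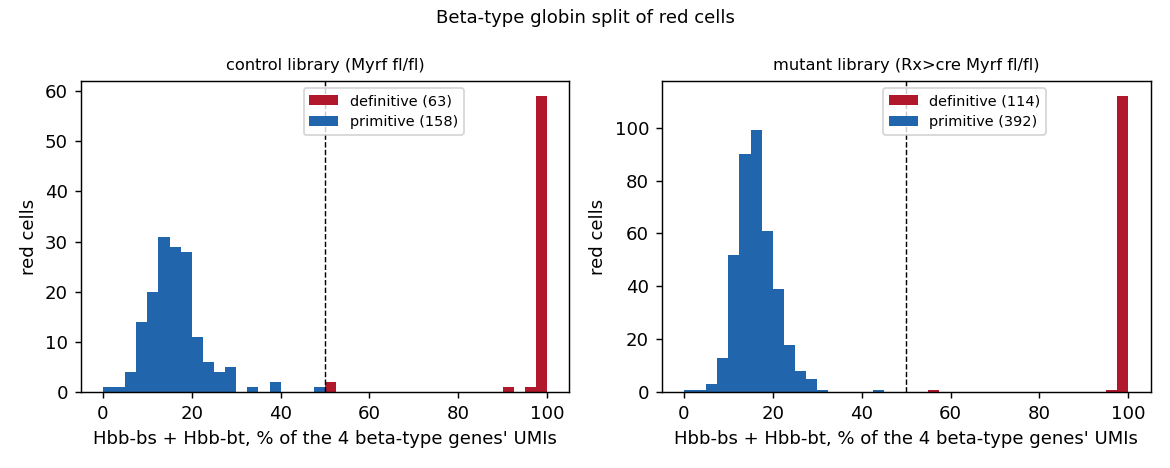
Histogram of red cells (y axis, number of cells) by the share of their *Hbb-bs*, *Hbb-bt*, *Hbb-y* and *Hbb-bh1* UMIs that came from *Hbb-bs* and *Hbb-bt* (x axis, percent), for the control and mutant library. Definitive cells (red, 63 and 114) crowd at the right end and primitive cells (blue, 158 and 392) lie to the left of the dashed line at 50%, where the rule divides them.

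A few members lay near the limits of the rule. The control cells nearest the divide had 50.5% (13893 UMIs in all) and 51.3% (4919 UMIs) of beta-type UMIs from *Hbb-bs* and *Hbb-bt*, and the nearest primitive cell outside it had 49.8% (44280 UMIs). In the mutant the nearest member had 57.1%, from only 4 and 3 UMIs of the late and early genes in a barcode of 512 UMIs, and the nearest primitive cell had 43.1%. The control cell at 50.5% carried 1062 *Hba-x* and 157 *Malat1* UMIs, and the one at 51.3% carried 240 *Hba-x* UMIs. On the other threshold, the lowest globin shares among members were 20.4% in the control and 21.7% in the mutant. Just outside it on the definitive side were barcodes with 14.0% globin in the control (1036 UMIs) and 18.0% in the mutant (49523 UMIs over 4572 genes, with 6857 UMIs of *Hbb-bs* and *Hbb-bt*). Another 4 barcodes in each library passed the globin rules but failed the filter on genes or mitochondrial UMIs.

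Definitive cells filled most of their transcriptome with globin. The median cell had 20814 UMIs in the control library and 20662.5 in the mutant, of which 89.9% and 89.5% were globin. Primitive cells had similar medians of 23182 and 23641 UMIs and globin shares of 85.0% and 83.1%. What was left for other genes was a median of 1772 (control) and 1989.5 (mutant) non-globin UMIs per definitive cell, against 3161 and 3707.5 per primitive cell. Thinned to 1000 non-globin UMIs per cell, definitive cells had a median of 390 genes (quartiles 374.25 and 445.25, 9 shallower cells left out) and primitive cells 358 (331 and 422, 29 left out) in the control. In the mutant the thinned medians were 380 (quartiles 360.25 and 437, 20 left out) and 354.5 (326 and 409, 76 left out), while unthinned medians of non-globin genes ran the other way, at 594 and 558.5 in definitive against 730.5 and 758 in primitive cells. The quartile ranges of the classes overlapped in both libraries.

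*Hbb-bs* was the leading transcript of the definitive cells, with 53.5% of their globin UMIs in the control library and 54.4% in the mutant, followed by *Hbb-bt* with 24.6% and 25.1%. Among the alpha genes, *Hba-a1* held 12.0% and 11.5%, and *Hba-a2* 9.35% and 9.01%. In primitive cells *Hbb-y* took the leading place with 55.6% and 57.4%, and *Hba-x* held 10.1% and 10.8%. The make-up of definitive cells thus differed between the libraries by under 1 percentage point for each of these adult genes.

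**Figure D2:**
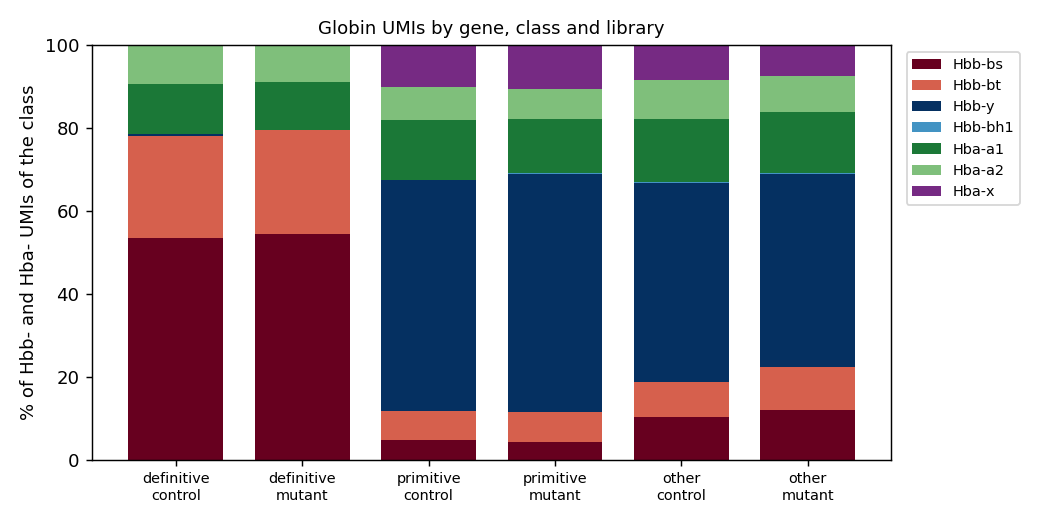
Share of globin UMIs (y axis, percent of all Hbb- and Hba- UMIs of the class) by gene, for definitive, primitive and non-red ("other") barcodes of each library (x axis). *Hbb-bs* and *Hbb-bt* make up most of the definitive bars, and *Hba-a1* and *Hba-a2* nearly all the rest. The bars of non-red barcodes are nearer to the primitive ones, with 48.0% and 46.6% of their few globin UMIs from *Hbb-y*. Their *Hbb-bs* share was larger, at 10.2% and 11.9% against 4.74% and 4.26% in primitive cells.

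The balance among the alpha-type genes also differed between the classes. The rule counted their UMIs toward the globin share but did not use their balance. *Hba-x* supplied 0.602% (0.570 to 0.635) of the UMIs of the 3 alpha-type genes in control definitive cells and 0.0602% (0.0527 to 0.0684) in mutant ones. In primitive cells it supplied 31.1% (31.0 to 31.2) and 34.8% (34.8 to 34.9). The control value rested on the pair of cells at 50.5% and 51.3%, and without them *Hba-x* was 45 of 217911 UMIs, 0.0207%. The median definitive cell had 0 (control) and 1 (mutant) *Hba-x* UMIs, while the median primitive cell had 1607.5 and 1875. Non-red barcodes held medians of 0 and 1 *Hba-x* UMIs as well, at median depths of 11096 and 10772.5 UMIs in place of 20814 and 20662.5, so the level in most definitive cells was no higher than in barcodes that should lack the gene and is not read as expression. Single cells ranged from 5.10% to 72.5% among primitive cells of the control and from 6.25% to 68.0% in the mutant. The highest member stood at 25.3% in the control, or 1.33% without that pair, and at 1.13% in the mutant, so that usage overlapped between the classes through the pair alone.

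The balance of the adult beta genes was also unlike that of primitive cells. *Hbb-bs* supplied 68.5% of *Hbb-bs* and *Hbb-bt* UMIs in definitive cells of the control (68.4 to 68.6) and 68.4% in those of the mutant (68.4 to 68.5). Single cells were tightly grouped, with a SD of 3.86 percentage points over 63 cells and 4.39 over 114. In primitive cells the shares were 40.7% and 37.1%, and single cells ranged from 0.354% to 88.0% in the control (SD 20.04) and from 0 to 82.9% in the mutant (SD 16.8). The definitive cells were therefore alike in this balance while primitive cells were spread over nearly the whole scale.

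**Figure D3:**
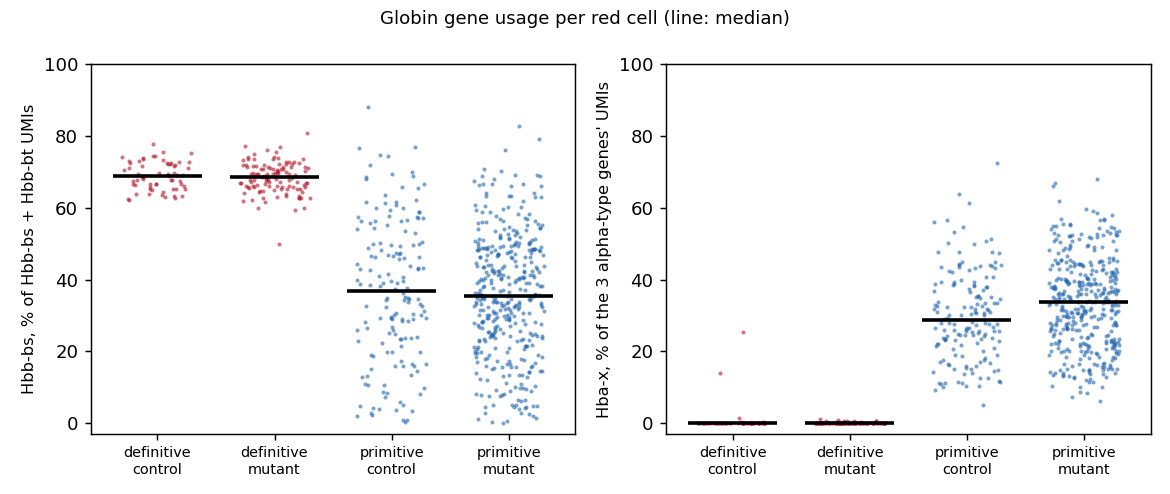
*Hbb-bs* as a percentage of *Hbb-bs* and *Hbb-bt* UMIs (left) and *Hba-x* as a percentage of *Hba-x*, *Hba-a1* and *Hba-a2* UMIs (right), 1 point per red cell, with the median as a line, by class and library. Definitive cells are narrow around medians of 68.8% and 68.5% on the left and lie at the floor on the right, except for the pair of control cells at up to 25.3%.

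*Hba-a1* supplied 56.1% of *Hba-a1* and *Hba-a2* UMIs in control and 56.0% in mutant definitive cells, against 63.7% and 64.6% in primitive cells. These are near-identical copies, and 130 of 130 bases compared before their starts were identical once shifted by 3 bases. Their transcripts were not compared here, and how any reads shared by both were counted could move the split. Together, the beta-type genes held 78.6% and 79.5% of globin UMIs in definitive and 67.5% and 69.1% in primitive cells, with the alpha-type genes making up the rest.

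Embryonic beta-type transcripts were nearly absent from most members. *Hbb-y* had a median of 2 UMIs per definitive cell in the control and 5 in the mutant, the same medians as in non-red barcodes, and 74.0% of the control's 4918 *Hbb-y* UMIs came from 1 cell, the one at 50.5%. *Hbb-bh1* behaved in another way, although primitive cells held more of it. Definitive cells stood at 3392 CPM against 8954 in primitive cells of the control library, and at 1683 against 9762 in the mutant one. The median primitive cell had 16.5 *Hbb-bh1* UMIs (control, highest cell 266) or 24.5 (mutant, highest cell 424). Among members, *Hbb-bh1* stood at 0 in 48 of 63 control and 92 of 114 mutant cells. However, 7 members of each library had 10 or more *Hbb-bh1* UMIs and more of them than of *Hbb-y*. These 14 cells ranged from 13 to 168 *Hbb-bh1* UMIs in the control and from 10 to 214 in the mutant, with at most 6 and 7 *Hbb-y* UMIs. They held 78.4% and 92.4% of the *Hbb-bh1* UMIs of the class. The combination of 10 or more *Hbb-bh1* UMIs with fewer of *Hbb-y* was seen in 0 control and 1 mutant non-red barcode. Of 550 primitive cells, 0 had it, but each held at least 103 (control) or 92 (mutant) *Hbb-y* UMIs. As the rule picks primitive cells by the sum of both genes, this 0 is not read as a contrast between the classes. The rule used *Hbb-bh1* only within a sum, and the cutoff of 10 UMIs was chosen after the values were seen, so this is a description.

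*Malat1*, a long noncoding RNA that stays in the nucleus, was lower in most definitive than in most primitive cells, with overlapping ranges, and it was chosen for mention after its values were seen. The median definitive cell had 3 *Malat1* UMIs in the control (quartiles 1 and 5, range 0 to 276) and 2 in the mutant (quartiles 1 and 3, range 0 to 318). The median primitive cell had 126 (quartiles 31 and 187, range 0 to 520) and 137 (quartiles 51.25 and 213.25, range 0 to 725). As a share of non-globin UMIs, *Malat1* was 0.169% and 0.124% in the median definitive cell, 3.20% and 3.22% in the median primitive cell, and 0.754% and 0.847% in the median non-red barcode. It was under 1% of non-globin UMIs in 88.9% and 93.0% of definitive cells and in 16.5% and 16.1% of primitive ones. Among members, 54 control and 101 mutant cells had up to 10 *Malat1* UMIs, 8 and 13 had over 30, and only 1 control cell lay between. The cells with over 30 held 88.6% and 88.7% of the class's *Malat1* UMIs. They were also richer, at a median of 4628.5 and 10435 non-globin UMIs, against 1699.5 and 1829 in the cells with up to 10. In the control, the cells with over 30 included those at 50.5% and 51.3% (157 and 51 *Malat1* UMIs) and the member with 20.4% globin (151). Another control cell, with 261, held 266 UMIs of markers of other cell types, while those with 140 and 276 held 0. In the mutant, cells with 217 and 126 held 66 and 1 such marker UMIs. The summed log2 ratio of definitive over primitive cells was -2.02 (-2.10 to -1.94) in the control library and -2.59 (-2.65 to -2.52) in the mutant one.

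**Figure D4:**
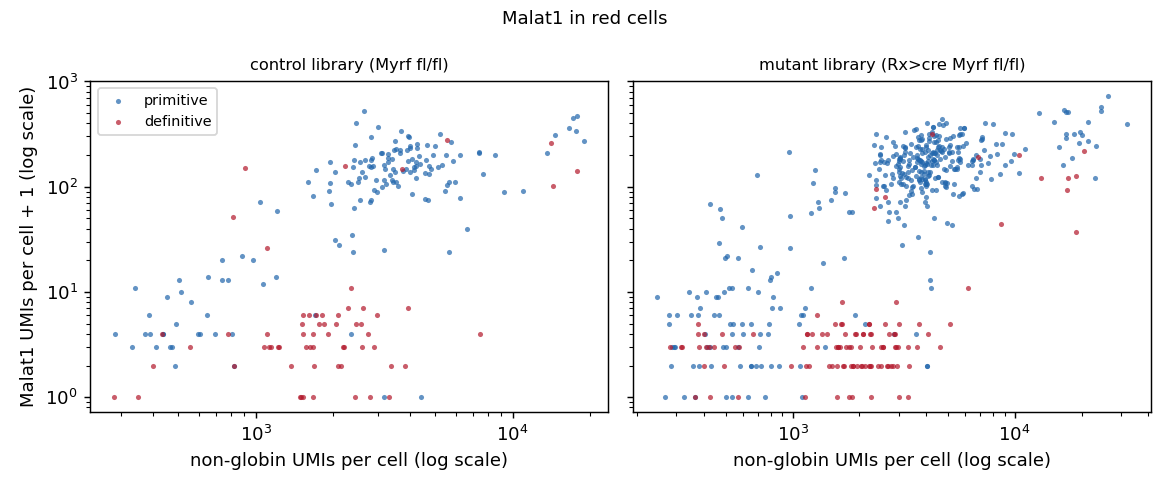
*Malat1* UMIs per cell plus 1 (y axis, log scale) against non-globin UMIs per cell (x axis, log scale) for definitive (red) and primitive (blue) cells of each library. Most definitive cells lie in a band at or under 10 UMIs, with 8 control and 13 mutant cells above 30, in the range of the primitive cells.

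Non-globin genes were compared between definitive and primitive cells of the same library, in CPM and as a log2 ratio with 1 UMI added to each sum. A gene was counted as higher or lower where the ratio was at least 2-fold in both libraries. Of 2835 genes with 20 or more UMIs in each library, 212 (7.48%) were higher and 180 (6.35%) lower in definitive cells. The median over all 2835 genes was 0.18 in the control and 0.23 in the mutant. Scaled to all UMIs, globin included, these medians came to -0.19 and -0.18 and the counts to 116 higher and 296 lower, so values nearer 0 than this shift have no firm direction.

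The 10 genes with the highest ratios in both libraries, out of 559 with 100 or more UMIs in each, included *Mpp1*, *Fam126a*, *Tfdp2*, *Rnf11*, *Cd24a*, *Ube2c* and *Pepd*. *Mpp1*, a palmitoylated protein of the membrane skeleton, stood at 949 CPM in control definitive cells and 37.4 in primitive ones, and at 980 and 47.5 in the mutant (log2 ratios 4.61 and 4.35). *Fam126a* was at 1409 against 83.3 CPM in the control and 1334 against 71.6 in the mutant (4.06 and 4.21).

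*Cd24a*, a small glycoprotein anchored on erythroid and other cells, was at 3459 against 340 CPM in the control and 2585 against 317 in the mutant (3.34 and 3.02). The ubiquitin ligase gene *Rnf11* had ratios of 3.28 and 3.43, the E2F partner *Tfdp2* 3.45 and 3.59, and the peptidase gene *Pepd* 2.93 and 3.68. *Ube2c*, the ubiquitin-conjugating enzyme of the anaphase-promoting complex, had 4.35 and 2.98. In each of these genes the richest single cell held at most 12.9% of the class's UMIs in the control library and 10.2% in the mutant, so no single cell carried them.

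The genes with the lowest ratios were *Fam174b*, *Acp5*, *Ackr3*, *Cited2*, *Hmox1*, *Nudt4*, *Sde2*, *Tal1*, *Junb* and *Slc38a2*. *Nudt4*, which encodes a hydrolase of diphosphoinositol polyphosphates, was the most abundant of them, at 1493 CPM in definitive against 16898 in primitive cells of the control and 908 against 14973 in the mutant (-3.49 and -4.04). Per cell, the median *Nudt4* count was 2 in definitive cells of both libraries and 41.5 and 43 in primitive ones. *Hmox1*, haem oxygenase 1, which breaks haem down, was at 72.6 against 996 CPM in the control and 5.96 against 637 in the mutant (-3.67 and -6.16). All 12 control *Hmox1* UMIs came from 1 cell, and 0 were left under a stricter divide. One cell also gave all 6 control *Junb* UMIs, and 26.3% of the 247 *Nudt4* UMIs.

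*Acp5*, tartrate-resistant acid phosphatase, had 0 UMIs in control definitive cells, at least 18.1-fold lower than in primitive ones when set against 3 UMIs, and a ratio of -4.38 in the mutant. *Ackr3*, a scavenging receptor for a chemokine, stood at -4.15 and -3.76, and *Cited2*, a transcriptional cofactor, at -3.69 and -3.92. *Junb*, an AP-1 subunit, had ratios of -2.66 and -4.07, and the amino acid transporter gene *Slc38a2* -2.63 and -3.28. *Fam174b* (-4.46 and -5.63) and *Sde2* (-2.67 and -2.76) complete the group. Definitive cells held 17 or fewer UMIs of each of these apart from *Nudt4*, so the ratios have wide counting intervals, as in *Fam174b* (-8.09 to -3.17 in the control).

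**Figure D5:**
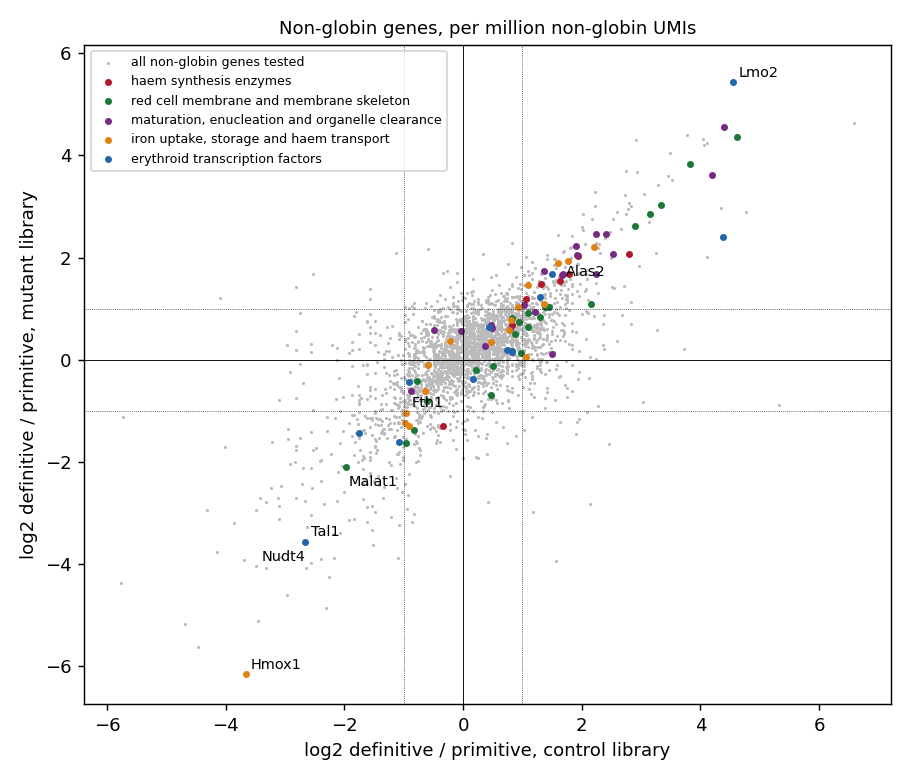
Log2 ratio of definitive over primitive red cells, from CPM, in the control (x axis) and mutant library (y axis), 1 point per gene for the 2835 tested, with 5 gene lists in colour and dotted lines at 2-fold. *Lmo2* lies at the upper right and *Hmox1*, *Tal1*, *Nudt4* and *Malat1* at the lower left. Some genes lie far from the diagonal, such as *Atoh7* (2.14 and -2.83) and *Sfrp2* (-0.10 and 1.71).

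Haem is built from glycine and succinyl-CoA by a chain of enzymes that begins and ends in the mitochondrion. Of 8 haem synthesis genes tested, 6 were higher in definitive cells and 0 lower, with list medians of 1.48 in the control and 1.51 in the mutant. *Alas2*, the erythroid enzyme of the first step, was at 7522 against 2419 CPM in the control (log2 1.64, 1.53 to 1.75) and at 6192 against 2139 in the mutant (1.53, 1.46 to 1.61). *Urod* had ratios of 1.94 and 2.03, and *Fech*, which inserts the iron, 1.32 and 1.48. *Alad* (1.79 and 1.68), *Cpox* (2.79 and 2.06) and *Ppox* (1.07 and 1.18) were the other members counted. *Uros* went the other way at -0.34 and -1.30. A single cell gave 72.3% of the control's and 42.5% of the mutant's *Cpox* UMIs.

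Of 17 genes tested for iron uptake, storage and haem transport, 5 were higher and 1, *Hmox1*, lower, with list medians of 0.78 and 0.36. *Slc25a37* (mitoferrin 1), which carries iron into the mitochondrion, was at 2322 against 505 CPM in the control (2.20) and 1912 against 412 in the mutant (2.21). *Slc25a39* (1.61 and 1.89), *Glrx5*, which serves iron-sulfur cluster assembly (1.10 and 1.47), *Hebp1* (1.77 and 1.94) and *Ncoa4*, the receptor for ferritin breakdown (1.36 and 1.09), made up the rest. The genes of the ferritin chains, which store iron, were not counted in either direction. *Fth1* stood at 39344 CPM in definitive and 76574 in primitive cells of the control, and at 34998 and 71901 in the mutant (-0.96 and -1.04). *Ftl1* had ratios of -0.65 and -0.61. Without the largest members, described below, *Fth1* was at -0.61 and -0.58 and *Ftl1* at -0.39 and -0.16. *Tfrc*, the transferrin receptor, had only 16 and 11 UMIs in definitive cells, with ratios of 1.06 and 0.05.

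Among 24 tested genes of the membrane and its skeleton, 8 were higher and 1 lower, with medians of 0.97 and 0.69. Beside *Mpp1* and *Cd24a*, these included *Tspo2* (3.16 and 2.85), the glucose transporter gene *Slc2a1* (2.89 and 2.61), *Stom* (2.15 and 1.10), the band 4.1 gene *Epb41* (1.44 and 1.03) and *Icam4* (1.38 and 1.03). *Stom* had only 14 and 7 UMIs in definitive cells under the stricter divide. Of the 18 control UMIs of *Icam4*, 83.3% came from 1 cell, and without the largest members it stood at -0.13 and 0.69. The core of the skeleton differed less, with *Slc4a1* (band 3) at 0.95 and 0.75, *Sptb* at 0.88 and 0.50 and *Ank1* at 1.09 and 0.64. *Xk*, a membrane transport protein linked to the Kell antigen, was lower (-1.98 and -2.10), with 10 and 13 UMIs in definitive cells under the stricter divide. Of 13 enzymes and antioxidants (medians 0.35 and 0.55), only *Gpx1* was counted, at 14808 against 5662 CPM in the control (1.39) and 13391 against 5503 in the mutant (1.28), while *Prdx2* (0.78 and 0.80), *Bpgm* (0.64 and 0.64) and *Blvrb* (0.18 and 0.19) stayed under 2-fold. *Car1*, a carbonic anhydrase used as a mark of definitive red cells, had 3 and 5 UMIs in definitive and 0 in primitive cells, too few for the comparison.

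The list for maturation, enucleation and clearance of organelles had 12 of 21 tested genes higher and 0 lower, next to the haem list the largest share among the lists, with medians of 1.50 and 1.66. *Mkrn1*, a ubiquitin ligase, was at 9723 against 1829 CPM in the control (2.41) and 8095 against 1478 in the mutant (2.45). *Dcaf12*, a substrate receptor of cullin 4 ligases, had 4.19 and 3.61, *Trim10* 1.91 and 2.22, the exportin gene *Xpo7* 2.53 and 2.08, and the ligase gene *Ube2o* 1.68 and 1.68. *Gabarapl2*, of the autophagosome, had 1.93 and 2.04, and the survival gene *Bcl2l1* 1.67 and 1.66. *Ube2l6* (1.02 and 1.08), *Fbxo7* (2.25 and 1.69), *Riok3* (1.36 and 1.74) and *Cdr2* (2.25 and 2.45) were also counted. *Bnip3l*, the receptor for removal of mitochondria in reticulocytes, was not, at 0.49 and 0.61.

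Transcription factor genes differed in both directions. Of 12 tested, 4 were higher and 3 lower, with medians of 0.58 and 0.18. *Lmo2*, a bridging subunit of the erythroid GATA1 and TAL1 complex, had 85 UMIs in control definitive and 12 in primitive cells, and 118 and 13 in the mutant (4.56 and 5.43). *Tal1*, another subunit of that complex, had 8 and 201 UMIs in the control and 6 and 419 in the mutant (-2.66 and -3.56). Its relative *Lyl1* was also lower (-1.75 and -1.43), as was *Bach1*, a haem-sensitive repressor (-1.08 and -1.62). *Bach1* had only 3 and 4 UMIs in definitive cells under the stricter divide, so its place among the lower genes is unsure. *Klf1*, which drives adult beta-globin genes, was higher (1.30 and 1.22), together with *Foxo3* (1.50 and 1.69) and *E2f2* (4.38 and 2.40). One cell held 62.9% of the 35 control *Klf1* UMIs, and without the largest members *Klf1* stood at 0.15 and 1.45. *Lyl1* then stood at -2.09 and -0.91. Among regulators of the embryonic-to-adult globin switch, 6 could be tested, of which 0 were higher and 1, *Mbd2*, was lower (-1.67 and -1.38), with medians of 0.06 and 0.55. *Bcl11a*, the best-known repressor of embryonic globins, had only 1 and 3 UMIs in definitive cells, and *Sox6* had 12 and 8 against 2 and 3 in the primitive cells, under the minimum of 20 for the comparison. Some progenitor genes were scarce, with 0 UMIs of *Kit* in the control and 1 in the mutant, 1 and 1 of *Gata2*, and 10 and 3 of *Epor*, the erythropoietin receptor. Others had more, as *Mki67* with 37 and 26 UMIs under the stricter divide. The whole list summed to 0.0828% and 0.0482% of non-globin UMIs in definitive cells, against 0.0369% and 0.0360% in primitive ones. Of the 4 of that list that could be tested, *Rgcc* was counted higher (2.54 and 1.40), with most of its 40 and 25 UMIs from 1 cell. The direction turned in both libraries without the largest members (-0.19 and -1.10).

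Ribosomal protein and mitochondrially encoded genes were looked at after their values were seen. Of 81 cytosolic ribosomal protein genes, 0 were higher and 3 lower, with medians of -0.50 in the control and -0.40 in the mutant, and they summed to 16.2% and 19.9% of non-globin UMIs in definitive against 26.7% and 29.2% in primitive cells. The 12 mitochondrially encoded genes tested had medians of 0.99 and 0.75, with 3 higher and 0 lower. They made up 5.60% and 4.95% of non-globin UMIs in definitive and 2.65% and 2.61% in primitive cells.

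The counting of DNA replication genes as higher rested on few large members, while that of *Ube2c* and *Nusap1* did not. Of 13 DNA replication genes tested, 5 were counted higher (*Mcm6*, *Mcm7*, *Pcna*, *Rrm2* and *Rpa2*), with medians of 1.07 and 1.11. Of 15 mitotic genes 2 were higher (*Ube2c* and *Nusap1*), with medians of 1.83 and 0.18. The median member had 7 (control) and 8 (mutant) UMIs over both lists, and 4 members in each library had 0. Without the 5 control and 7 mutant members that each held over 3% of their class's non-globin UMIs (and 3 such primitive cells of the control), 0 of 8 replication genes but still *Ube2c* and *Nusap1* were higher. *Mcm6* then stood at 0.40 and -0.14, and *Rpa2* at 0.65 and -0.76. The members left out gave 35.8% and 34.7% of the non-globin UMIs and 44.1% and 33.7% of the cell cycle UMIs of definitive cells. Only in the control was their share of cell cycle UMIs the larger of these. *Nusap1*, a spindle protein, had 68 and 154 UMIs in definitive cells, at most 10.3% of them from 1 cell, with ratios of 4.77 and 2.89. *Top2a* and *Mki67*, which mark dividing cells, were at 1.83 and -0.62, and at 2.38 and 0.20. With these members left out, 14 of 21 maturation genes were higher and 0 lower. Of 24 membrane genes 10 were higher and 2 lower (*Xk* and *Ermap*), of 15 iron genes 7 were higher and 2 lower (*Tmem14c* and *Hmox1*), and of 8 haem genes 5 were higher and 1 lower (*Uros*), while *Ppox* was no longer counted. Ribosomal protein genes counted lower were then 23 of 80.

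The largest members differed among themselves. The one with most non-globin UMIs in the control (17765 over 2675 genes) had 251 cell cycle UMIs, 28 *Alas2* UMIs and 0 UMIs of the markers of other cell types. A mutant member with 18841 non-globin UMIs over 2920 genes was alike, with 178 cell cycle, 22 *Alas2* and 1 other-type marker UMI. By contrast, the third control member (14083 non-globin UMIs) had 266 other-type marker UMIs, and the first mutant member (20606) had 66. Scrublet, a caller that scores barcodes against simulated doublets, marked 2 control and 4 mutant definitive cells. In all, 5 control and 9 mutant members had 10 or more UMIs of other-type markers, and they held 73.8% and 65.7% of such UMIs, at a median of 2 and 1 per member.

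Markers of other cell types were near 0 in definitive cells for some lists and closer to the level of non-red barcodes for others. Of 10 macrophage markers, 6 had 0 UMIs in the control library and 5 in the mutant, with 5 and 6 UMIs in sum (0.00302% and 0.00179% of non-globin UMIs, against 0.0340% and 0.0415% in non-red barcodes). The 7 platelet and megakaryocyte markers summed to 3 and 1 UMIs, the 8 endothelial markers to 2 and 25 (0.00121% and 0.00745%, against 0.0188% and 0.0174% in non-red barcodes), and the 8 ectoderm and lens markers to 8 and 15. The 10 pigment cell markers reached 19 and 33 UMIs and the 8 mesenchyme markers 67 and 82 (0.0405% and 0.0244%, against 0.107% and 0.114%). Retinal markers were the most common, with 346 and 310 UMIs (0.209% and 0.0923%, against 0.278% and 0.288% in non-red barcodes), of which up to 264 in the control and 62 in the mutant came from 1 cell. The part of these transcripts in the comparisons was not tested.

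Between the libraries, definitive cells were compared in the same way, with the mutant set over the control. Of 2202 genes with 20 or more UMIs, 95 (4.31%) were at least 2-fold higher and 119 (5.4%) at least 2-fold lower in the mutant library, around a median of 0.05. Without the members that held over 3% of their class, 46 of 1230 were higher and 51 lower. Of the genes described above as higher in definitive cells, *Mpp1* was at 0.04 (-0.23 to 0.33), *Fam126a* at -0.08 (-0.31 to 0.16), *Alas2* at -0.28 (-0.38 to -0.18), *Mkrn1* at -0.26 (-0.35 to -0.17) and *Cd24a* at -0.42 (-0.57 to -0.27), while *E2f2* and *Stom* were at least 2-fold lower in the mutant. Among the erythroid lists, 0 genes were higher in the mutant. Those lower were *E2f2*, *Sox6*, *Uros*, *Tfrc*, *Ermap*, *Dmtn*, *Stom* and *Btg2* (with *Rgcc* and *Mki67* from the progenitor list), each with 40 or fewer UMIs in the control and 26 or fewer in the mutant. Without the largest members those counted lower were *E2f2*, *Xk* and *Mki67*, as fewer genes could be tested and others stood nearer 0, among them *Uros* (-0.37), *Dmtn* (-0.39), *Sox6* (-0.46), *Ermap* (-0.67), *Btg2* (-0.68) and *Tfrc* (-0.89). *Stom* (-1.94) and *Rgcc* (-1.46) had too few UMIs left to be tested.

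Most of the genes with the largest differences between the libraries drew a large share of their UMIs from 1 cell. Of 498 genes with 100 or more UMIs, the highest ratios included those of *Sfrp2* (1.73), *Ckb* (1.40), *Slc25a4* (1.09) and *Pdcd5* (0.96, not 2-fold). *Sfrp2*, a secreted Wnt antagonist, had 34 UMIs in the control library and 235 in the mutant, 52.3% of the latter in 1 cell, and stood at -0.53 without the largest members. *Ckb*, a creatine kinase, had 82 and 444 UMIs and stood at 0.88 without the largest members. *Slc25a4* then stood at 0.29, while *Pdcd5* rose to 1.28. The lowest were those of *Atoh7* (-4.16), *Hist1h2ap* (-1.87), *Hist1h1c* (-1.72), *Hist1h2ae* (-1.41) and *Hist1h1b* (-1.39). *Atoh7*, a factor of retinal neurogenesis, had 264 UMIs in the control library and 29 in the mutant, and 89.4% of the 264 came from 1 cell. Without the largest members it stood at -1.53. Of the replication-linked histone genes, *Hist1h2ap* drew 47.2% of its 409 control UMIs and 63.7% of its 226 mutant UMIs from 1 cell. Without the largest members it stood at -0.71, *Hist1h2ae* at -0.05 and *Hist1h1b* at 0.18. *Hist1h1c* was the most even of the histone genes, with 93 and 57 UMIs, at most 24.7% of them from 1 cell, and stood at -1.88 without the largest members.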

How the data were processed

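The authors counted UMIs for each gene in each barcode with Cell Ranger 7.1.0 on mm10 (submitters' processing notes) and deposited these counts without normalization or their later filters in Seurat 4.1.1. Counting of intronic reads is not given in the sources used here. The libraries held 63483835 (control) and 75228861 (mutant) UMIs over 6039 and 6754 barcodes. Barcodes were kept if they had 200 or more genes and at most 15% mitochondrial UMIs. Members and gene lists were chosen with earlier results of these data known. For each library, a gene's UMIs were added up within a class and compared as UMIs per 1000000 non-globin UMIs (CPM), because the rule fixes the globin share, as a log2 ratio with 1 UMI added to each sum. As the classes differ in size, the added UMI raises the ratio of low genes in the smaller class. Genes needed 20 UMIs over both sums. Ratios have exact conditional binomial and shares exact Clopper-Pearson intervals at 95%. Only the ratio intervals were tried on simulated data. These were independent counts per gene, which leave out the gathering of UMIs in single cells. No test was made with 1 library per genotype. Doublets were marked by Scrublet in scanpy 1.11.5 (expected rate 5%) and kept, apart from an alternative.

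Genes named were the 10 highest and 10 lowest ratios of definitive over primitive cells, ranked by the ratio nearest 0 of both libraries, with 100 or more UMIs in each and with sex-linked, globin, ribosomal protein and mitochondrial genes set aside, the 5 highest and lowest ratios between libraries, and the list members with 50 or more UMIs, up to 4 per list, apart from some that are not reported here. Other list members that passed 2-fold, those printed beside them, *Malat1* and the cell cycle members were chosen after their values were seen. Alternatives were a globin share of 50%, a stricter beta-type split (definitive at 80% or more late beta-type UMIs, primitive at 20% or less), a mitochondrial limit of 5%, the 2000 UMI limit in the study's methods, 5000 or more UMIs per barcode, no doublets, scaling to all UMIs, equal weight per cell, and other gene minimums. Leaving out barcodes over 3% of their class was added after seeing the data. Analyses used Python 3.11.15 with scipy 1.17.1 and pandas 2.3.3.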

Additional observations from a re-analysis of the deposited data

How the results depend on the processing

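No paired analysis was possible because each genotype has 1 library and the labels give no shared replicate numbers. For the same reason no replicate could be left out. The upper limit of 2000 UMIs, above which the study's methods remove cells, left 8 control and 13 mutant definitive cells. Under it the share of kept barcodes was 0.669% and 1.17%, *Hba-x* usage 0.203% and 0.178% in definitive and 21.8% and 25.9% in primitive cells (control, then mutant), and the counts of genes were 1 higher and 3 lower for definitive over primitive cells and 7 higher and 2 lower for mutant over control, since fewer genes could be tested (119 and 90).

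A mitochondrial limit of 5% raised the shares to 1.58% and 2.50% and a minimum of 5000 UMIs raised the control's to 1.47%, as both remove more of the other barcodes. The stricter split put *Hba-x* usage at 0.0207% in control definitive cells and at 31.9% and 35.6% in primitive cells. With 5000 UMIs it was 0.500% in control definitive and 35.0% in mutant primitive cells, and with a globin share of 50% 34.8% in the latter.

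Scaled to all UMIs, the counts were 116 higher and 296 lower for definitive over primitive cells and 147 and 79 for mutant over control. Without the filter on low counts they were 1422 higher for the former and 674 and 3019 for the latter, where the added UMI sets the ratio of genes with few counts. With 100 UMIs per gene they were 92 and 61, and 4 and 9, of 748 and 589 genes. Equal weight per cell gave 155 and 263 for mutant over control, and leaving out barcodes over 3% of their class gave 46 and 51. Of the 212 higher and 180 lower genes, 198 and 149 were shared with the stricter split, 195 and 156 with the fit without doublets, and 163 and 136 with the fit without the largest barcodes.

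Single genes that passed 2-fold and turned sign included *Sfrp2* for mutant over control without the largest barcodes (-0.53), *Slc25a4* for mutant over control with equal weight per cell (-0.30), and, for definitive over primitive cells of the control, *Atoh7* without the largest barcodes (-0.44), *Ubb* under the limit of 2000 UMIs (-0.44) and *Birc5* with equal weight per cell (-0.12). Without the largest barcodes the sign also turned for *Hist1h1b* (0.18, too few UMIs left to be tested) for mutant over control, for *Rgcc* (-0.19 and -1.10) in both libraries and for *Mcm6* (-0.14) and *Rpa2* (-0.76) in the mutant library, for definitive over primitive cells. Depth limits the genes counted lower, since all but *Nudt4* of the 10 named had 17 or fewer UMIs in the definitive cells of each library.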

Other observations

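The mutant barcode with 18.0% globin UMIs, under the 20% that the rule asks, had 49523 UMIs over 4572 genes, and 6857 UMIs of *Hbb-bs* and *Hbb-bt* against 22 of *Hbb-y* and *Hbb-bh1*. The minor alpha-type genes *Hbq1a* and *Hbq1b* were also detected in definitive cells, with 10 and 21 UMIs in the control and 40 and 47 in the mutant, while the 5298 and 5868 non-red barcodes together held 1 and 2 UMIs in the control and 1 and 5 in the mutant. Primitive cells had 76 and 123 UMIs in the control and 160 and 266 in the mutant. In CPM, *Hbq1a* was at 60.5 in definitive against 129 in primitive cells of the control and at 119 against 93.9 in the mutant, and *Hbq1b* at 127 against 209 and at 140 against 156. *Hbb-bh2* had 0 UMIs in definitive cells of both libraries and 11 and 5 in primitive ones.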
